A study of Mus musculus with 6 samples.

Results

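The miR-99, miR-100 and miR-125 family was followed in newborn mouse cortical neurons through 11 assays, out of 584 microRNA assays in the series. Members were taken by name, as every assay for miR-99a, miR-99b, miR-100, miR-125a or miR-125b, whichever strand it reads, and they occupy 12 of 768 wells. The 6 samples are RNA of purified neuronal cell bodies, all taken on postnatal day 1. The control group in the labels, with 3 samples, is callosal projection neurons (CPN), whose axons cross to the other hemisphere. Subcerebral projection neurons (SCPN), the test group, project to targets below the cortex such as the spinal cord and gave the other 3. The labels give no genotype, strain or treatment, and how the neurons were sorted is not given in the sources used here. Whether the replicates are separate animals or litters is not labelled either, so every p-value below measures sample-to-sample spread that may be technical.

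MiR-125 is the vertebrate relative of lin-4, the microRNA that times larval development in Caenorhabditis elegans, and miR-99 and miR-100 belong to another old family that sits beside let-7 and miR-125 in animal genomes. A microRNA guides repression of messenger RNAs mainly through its seed, bases 2 to 8 of the mature strand. MiR-99 and miR-100 are known for repressing Mtor, a growth kinase, in several mammalian cell types, and miR-125b is known in mouse hippocampal neurons for an effect on dendritic spines. MiR-125 and let-7 both act on Lin28, a factor of immature cells.

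The mature sequences are shown because they define what each assay can and cannot separate. They are from RefSeq (GRCm38.p6), 5′ to 3′, with the seed in capitals. Of the 11 assays, 7 matched 1 RefSeq name and 2 matched 2 names (miR-125b-3p and miR-125b*), while the 2 rat-named assays were not matched to a sequence.
miR-99a-5p, chr16:77598940-77598961, plus strand: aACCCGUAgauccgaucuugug
miR-100-5p, chr9:41531437-41531458, plus strand: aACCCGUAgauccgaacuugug
miR-99b-5p, chr17:17830194-17830215, plus strand: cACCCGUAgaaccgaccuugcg
miR-125a-5p, chr17:17830817-17830840, plus strand: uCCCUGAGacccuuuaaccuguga
miR-125b-5p, chr9:41581940-41581961 and chr16:77646279-77646300, plus strand: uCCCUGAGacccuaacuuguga
The first 3 share 1 seed and the miR-125 strands share another. Counted from the 5′ end, miR-99a and miR-100 differ at 1 base, U16A, and miR-99a and miR-99b at 4, A1C, U11A, U16C and U21C. MiR-125a-5p and miR-125b-5p are identical over their first 13 bases. How far assays with such similar targets amplify each other was not tested, so miR-99a and miR-100 may not be fully separate measurements. MiR-125b-5p is made by 2 genes, and its assay cannot tell them apart.

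The opposite strands are read by 6 assays. Among them miR-99a-3p and miR-99b-3p share a seed and the miR-125 strands do not.
miR-99a-3p, chr16:77598977-77598997, plus strand: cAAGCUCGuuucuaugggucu
miR-99b-3p, chr17:17830232-17830253, plus strand: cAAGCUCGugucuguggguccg
miR-125a-3p, chr17:17830855-17830876, plus strand: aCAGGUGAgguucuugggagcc
miR-125b-1-3p, chr9:41581980-41582001, plus strand: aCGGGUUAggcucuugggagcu
miR-125b-2-3p, chr16:77646318-77646339, plus strand: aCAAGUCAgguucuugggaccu
The strands of the 2 miR-125b genes differ at 5 bases (G3A, G4A, U7C, C11U and G20C), and 3 of these lie in the seed. An asterisk in an assay name marks the minor strand. Which of these 2 strands the assays named miR-125b-3p and miR-125b* read is not given in the sources used here, and rat sequences were not used here.

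Each well of the 2 cards (A and B) is a quantitative PCR read out as the threshold cycle (Ct), where an earlier cycle means more template. Between 250 and 331 assays per sample had a Ct under 35, and the mean Ct of the commonly detected card A assays ran from 21.8 to 28.1. Both samples numbered 1 had the lowest mean Ct of their group, 22.6 in CPN and 21.8 in SCPN. A level below is in log2 units above a sample's mean over the assays that all 6 samples detected, taken card by card (159 assays for A and 65 for B). Differences of levels are SCPN minus CPN. Such levels also carry each assay's own efficiency, so levels of different assays are only roughly comparable. In bulk samples, fewer cells of a type and less RNA per cell cannot be told apart. For each marker list the level was averaged over its tested assays in each sample, and the lowest and highest sample are given. Single markers of a list differ more widely. Of 6 neuron markers listed, 5 were found on the cards, and their average was 4.03 to 4.87 in CPN samples and 4.34 to 5.39 in SCPN samples. Of these, 2 had a lower and 3 a higher mean in SCPN, with a median difference of 0.12. The remaining marker, listed as miR-128a, was not matched to the assay named miR-128, which differed by -0.55 ± 0.53 (SE, limma adjusted p 0.81). The average of 6 progenitor markers was 3.37 to 4.54 in CPN and 3.195 to 3.89 in SCPN. Of the progenitor markers, on this scale, 4 had a lower and 2 a higher mean in SCPN, with a median difference of -0.27 and 1 unadjusted p under 0.05 (miR-92a, -2.02 ± 0.72 SE, limma adjusted p 0.5, named after its value was seen). The single oligodendrocyte marker tested lay at -8.87 to -5.57 in CPN and -8.16 to -7.07 in SCPN. The list average was -2.48 to -2.42 and -2.79 to -1.003 for vascular markers, -3.39 to -2.79 and -3.55 to -2.31 for microglia and blood markers, and -1.39 to -0.54 and -1.71 to -0.52 for astrocyte markers. Of the astrocyte list miR-23a, and of the microglia list miR-142-5p, was detected in 0 samples, and 0 markers of any list passed the test. The part of other cells in the family's values was not tested.

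All 11 family assays were detected in all 6 samples, so all 11 could be tested and all are among the assays that set the scale. The main strands of miR-125 were among the brightest signals on card A. By mean level, miR-125a-5p ranked 4 and miR-125b-5p 9 of the 159 commonly detected card A assays, against 41 for miR-100, 47 for miR-99b and 46 for miR-99a. Their opposite strands lay far lower, at 134 for miR-125a-3p and 132 for miR-125b-3p. In the order of levels, miR-125a-5p minus miR-125b-5p was 0.43 ± 0.55 for CPN, within its spread, and 0.62 ± 0.26 for SCPN (SD, n = 3), where miR-125a-5p was higher in all 3 samples. MiR-99a minus miR-100 was -0.34 ± 0.27 for CPN, with miR-99a lower in all 3 samples, and -0.11 ± 0.34 for SCPN, within its spread (SD, n = 3). MiR-99b did not differ from either beyond the spread, at -0.10 ± 0.92 for CPN and -0.36 ± 0.56 for SCPN against miR-100, and miR-99a minus miR-99b was -0.24 ± 1.15 for CPN and 0.25 ± 0.87 for SCPN (SD, n = 3).

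MiR-125b-5p had Ct 15.452, 21.375 and 18.917 in CPN replicates 1 to 3 and 15.694, 21.959 and 22.147 in SCPN replicates 1 to 3. On the level scale these became 7.14, 6.70 and 5.82 in CPN and 6.09, 5.18 and 5.08 in SCPN. CPN replicate 3 lay below SCPN replicate 1, so the groups overlapped, while SCPN replicates 2 and 3 were below every CPN sample. The difference was -1.11 ± 0.63 (SE), with a 95% interval from -2.57 to 0.36. Its unadjusted p of 0.119 was the smallest in the family, and the limma adjusted p was 0.787. With the replicate number as a block, a pairing that the labels do not state, its unadjusted p by limma was 0.0417. The limma adjusted p was then 0.283, so miR-125b-5p did not pass in either fit.

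MiR-125a-5p, which carries the same seed, had levels of 7.46, 7.72 and 5.76 in CPN and 6.43, 5.85 and 5.94 in SCPN. The lowest value of all 6 samples was that of CPN replicate 3, while the other CPN samples were above all SCPN samples. The difference was -0.91 ± 0.69 (SE), with a 95% interval from -2.53 to 0.71 and a limma adjusted p of 0.796. Without CPN replicate 3 it was -1.52 and without CPN replicate 2 it was -0.60.

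MiR-100 was the steadiest of the main strands in CPN, with levels of 2.52, 2.87 and 2.60, against 2.44, 1.496 and 1.70 in SCPN. Its groups did not overlap, though SCPN replicate 1 came within 0.084 of CPN replicate 1. The difference was -0.79 ± 0.56 (SE), with a 95% interval from -2.09 to 0.51 and a limma adjusted p of 0.787. On the scale used here it was 1 of 2 family assays whose groups did not overlap. That pattern held for 15.0% of all tested assays in either direction and for 6.21% with lower values in SCPN. With scaling on the control assays the groups of miR-100 overlapped.

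MiR-99a, which differs from miR-100 at 1 base, had levels of 1.87, 2.70 and 2.41 in CPN and 1.94, 1.59 and 1.77 in SCPN. Here CPN replicate 1 lay inside the SCPN range, and the difference of -0.56 ± 0.54 (SE) was the smallest of the main strands. Its 95% interval ran from -1.83 to 0.71 and its limma adjusted p was 0.81. MiR-99b varied more within each group, at 3.32, 2.80 and 1.56 in CPN and 2.65, 1.11 and 0.79 in SCPN. SCPN replicates 2 and 3 were below every CPN sample and SCPN replicate 1 was inside the CPN range. Its difference was -1.04 ± 0.76 (SE), with a 95% interval from -2.83 to 0.74 and a limma adjusted p of 0.787.

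**Figure D1:**
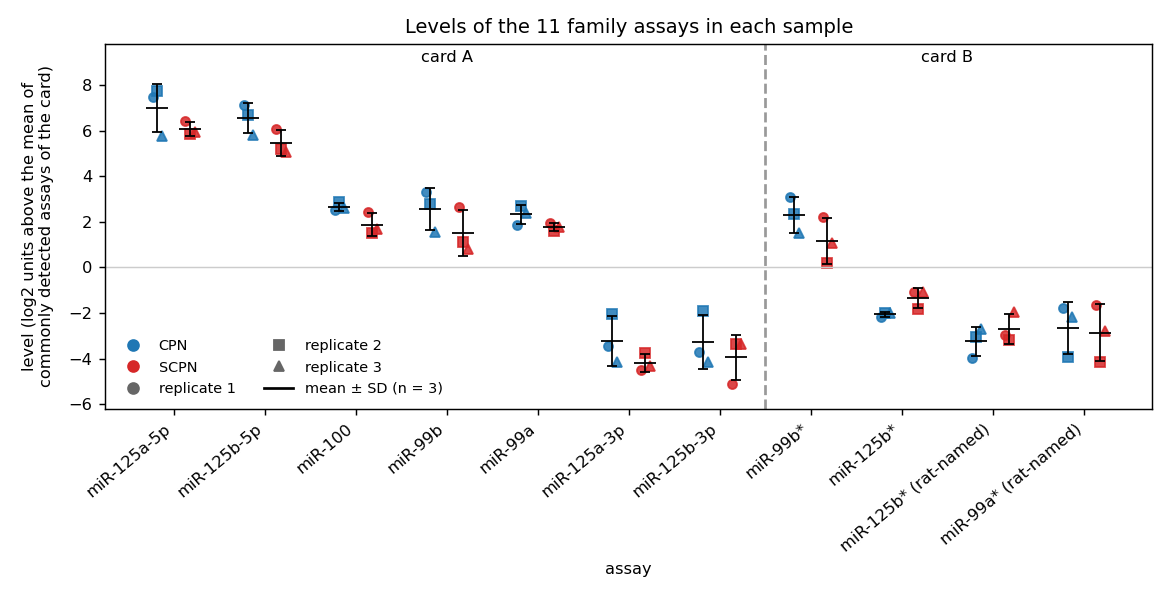
Level of each of the 11 family assays (log2 units above the card's mean over commonly detected assays) in the 3 CPN samples (blue) and the 3 SCPN samples (red), marker shape giving the replicate number and black bars the mean ± SD. MiR-125a-5p and miR-125b-5p lie between 5.08 and 7.72, and groups are fully separate in miR-100 and miR-125b* alone. With scaling on the control assays the groups of miR-100 and miR-125b* overlap too. In miR-125b* the separation rests on averaging 2 wells, which differed by 1.096 cycles in CPN replicate 2.

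Among the opposite strands, miR-125a-3p and miR-125b-3p on card A had lower means in SCPN, as their main strands did, and like them had higher means with scaling on the control assays. MiR-125a-3p stood at -3.47, -2.05 and -4.17 in CPN and -4.51, -3.74 and -4.31 in SCPN, a difference of -0.96 ± 0.71 (SE, limma adjusted p 0.787). CPN replicate 2 was the highest sample and CPN replicate 3 was inside the SCPN range. MiR-125b-3p stood at -3.71, -1.91 and -4.14 in CPN and -5.10, -3.38 and -3.37 in SCPN, a difference of -0.69 ± 0.83 (SE, limma adjusted p 0.83). It was again CPN replicate 2 that stood highest, and without it the difference was -0.08. MiR-125a-5p exceeded miR-125a-3p by 10.21 ± 0.63 log2 units in CPN and by 10.26 ± 0.68 in SCPN (SD, n = 3). The classes thus differed in this gap by 0.05, less than the spread between samples, and the pair was not tested.

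The 4 assays on card B had differences in both directions. MiR-99b* stood at 3.08, 2.33 and 1.49 in CPN and 2.20, 0.20 and 1.09 in SCPN, with SCPN replicate 1 inside the CPN range and the other SCPN samples below it. On the scale used here its difference of -1.14 ± 0.74 (SE, limma adjusted p 0.787) was close to that of miR-99b, the main strand of the same gene. MiR-99b is on the other card, so this likeness depends on how each card is scaled. With scaling on the control assays, miR-99b* differed by -0.75 and miR-99b by 0.20. The mouse-named miR-125b* stood at -2.19, -1.98 and -1.999 in CPN and -1.06, -1.83 and -1.09 in SCPN. Every SCPN sample was above every CPN sample, the pattern of 8.82% of all tested assays, and the difference was 0.73 ± 0.54 (SE, limma adjusted p 0.787). This assay has 2 wells, which differed by 1.096 cycles in CPN replicate 2, by 0.404 in SCPN replicate 3 and by 0.045 or less in the other samples. SCPN replicate 2 lay 0.152 above CPN replicate 2, less than the well gap of the latter, so the separation rests on averaging the wells. With the lowest Ct of the wells the difference was 0.62. With scaling on the control assays the groups of this assay overlapped. The rat-named assay for miR-125b* stood at -3.97, -3.06 and -2.71 in CPN and -2.97, -3.20 and -1.94 in SCPN, a difference of 0.54 ± 0.64 (SE, limma adjusted p 0.83) with overlapping groups. The mouse-named assay was above it by 0.71 to 1.91 log2 units, a gap with an SD of 0.49 over the 6 samples. The samples did not rank alike in the 2 assays. SCPN replicate 1 was highest in the mouse-named assay and SCPN replicate 3 in the rat-named assay. The rat-named assay for miR-99a* had overlapping groups too, at -1.798, -3.95 and -2.19 in CPN and -1.67, -4.14 and -2.79 in SCPN, and differed by -0.22 ± 0.88 (SE, limma adjusted p 0.975).

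Within card B, where the card's scaling cancels, miR-125b* minus miR-99b* came to -5.27, -4.31 and -3.49 for CPN replicates 1 to 3 and to -3.26, -2.03 and -2.17 for SCPN replicates 1 to 3. All SCPN samples were higher, by 1.87 log2 units in the mean. It is the only pair of family assays on card B without overlap, and the share of all card B assay pairs without overlap was not computed. This pair was chosen after its values were seen and was not tested. With the rat-named assay the groups overlapped. There, miR-99b* minus miR-125b* was 5.54 ± 1.43 for CPN and 3.87 ± 1.15 for SCPN (SD, n = 3). MiR-125b-3p and miR-125b* differed in opposite directions, but they are on different cards, so their contrast depends on how each card is scaled.

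The comparison asked whether the family's level differs between these classes of cortical neuron. Taken over the 11 assays, 9 had a lower mean in SCPN and 2 a higher mean, with a median difference of -0.79, but with scaling on the control assays 1 had a lower and 10 a higher mean. Of all 306 assays tested, 54.9% had a lower mean in SCPN and the median was -0.08. By limma, 0 family assays passed adjusted p 0.05 and 0 had an unadjusted p under 0.05, where 0% and 8.17% of all tested assays did. With the replicate block 51 of all tested assays had such an unadjusted p, against 25 without it, and 1 of them, miR-125b-5p, was of the family. On card A all 7 family assays had a lower mean (0 with control scaling), against 57.2% of the 208 assays tested there. On card B 2 of 4 had a lower mean (1 with control scaling), against 50.0% of 98. Ranked from the lowest difference on card A, the 7 assays stood at positions 27 (miR-125b-5p), 31 (miR-99b), 35 (miR-125a-3p), 39 (miR-125a-5p), 51 (miR-100), 55 (miR-125b-3p) and 70 (miR-99a) of 208. On card B miR-99b* stood at position 3 of 98 and miR-125b* at 79.

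**Figure D2:**
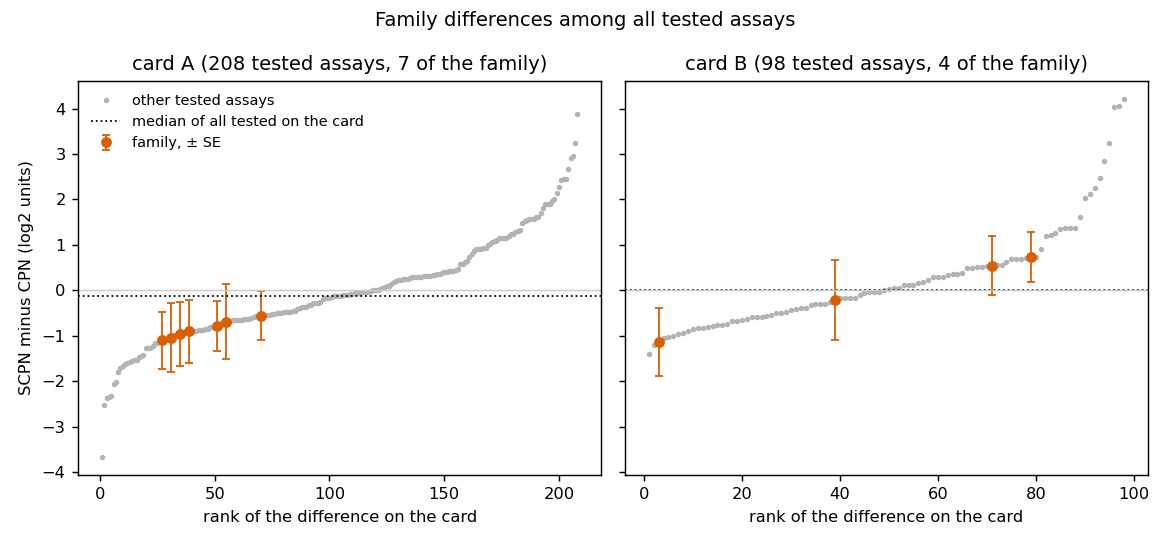
SCPN minus CPN difference (log2 units) of every tested assay, ranked within each card, with family assays in orange with their SE, other assays in grey and the median of the card as a dotted line. The 7 card A assays lie between -1.11 and -0.56, below the card median of -0.13 (they are above 0 with control scaling), and the 4 card B assays spread from -1.14 to 0.73.

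The direction of these differences depended on the scale. When the control assays were used, as in the authors' deposited normalised values, the median of all tested card A assays moved from -0.13 to 1.11 and that of card B from 0.01 to 0.39. The share of all tested assays with a lower mean in SCPN moved from 54.9% to 18%. Other scales moved the median of all tested assays less, from -0.08 to -0.24 with median scaling and to 0.18, with 44.1% of assays lower, when the scale left out the family and the microRNAs of the large imprinted cluster at 12qF1. On the latter scale 9 family assays were lower, with a median of -0.47 and -0.24 for miR-99a. On the scale used here, 65.7% of the 169 card A assays outside the family and 12qF1 were lower, with a median of -0.32. The family stood less far from these than from all tested card A assays. On the control scale the differences were 0.14 for miR-125b-5p, 0.20 for miR-99b, 0.33 for miR-125a-5p, 0.46 for miR-100 and 0.68 for miR-99a. In the authors' deposited table of ratios, SCPN over CPN, family entries ran from 0.593 for miR-99b* and 1.10 for miR-125b-5p to 2.34 for 1 well of miR-125b*. There, 11 of 12 family entries were above 1, and so were 78.9% of all 280 entries, whose median in the authors' deposited table was 1.65. Minus the card A median, the median of the 7 family assays was -0.78 with scaling on the commonly detected assays, on controls or on their median, and -0.75 with quantile normalisation. All 7 were below the card A median in each case. Apart from quantile normalisation, these scalings shift every assay of a card alike, so this position could not differ between them. Leaving out CPN replicate 2 gave -0.32 in place of -0.78, and leaving out CPN replicate 3 gave -1.44, so its size rested on single samples. On card B, U6 in CPN replicate 1 had Ct 16.2, against 9.91 on card A. Between the cards U6 differed by 6.33 cycles in that sample and by -0.51 to 0.16 in the other 5 (B minus A), and this control enters the deposited scale of card B.

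**Figure D3:**
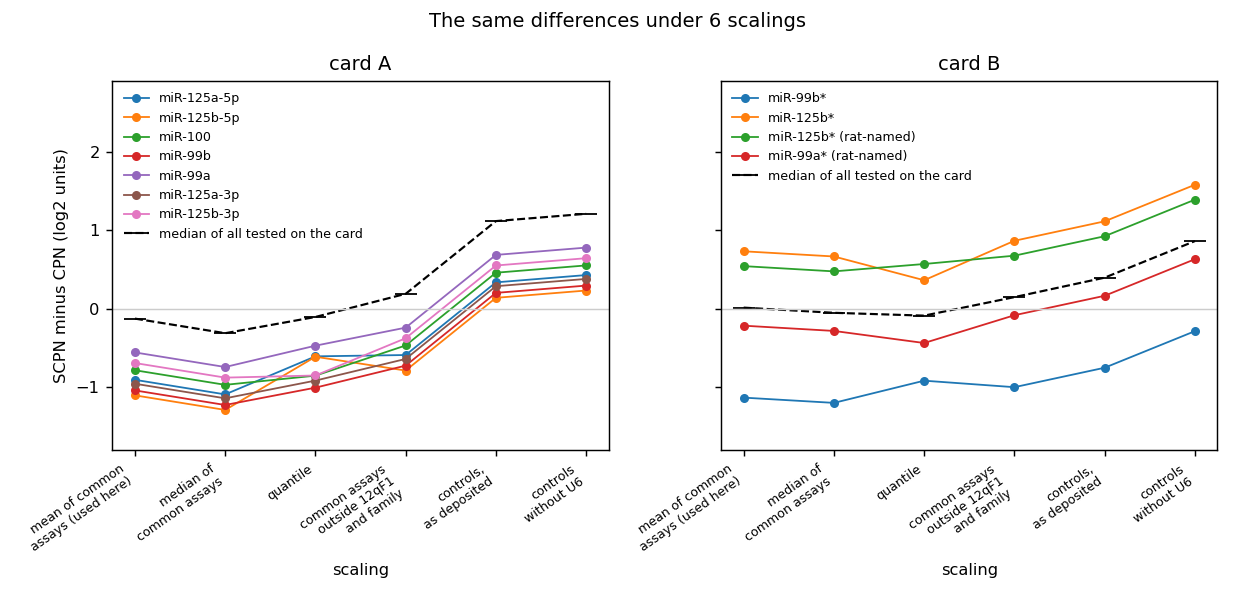
SCPN minus CPN difference (log2 units) of each family assay under 6 ways of scaling, by card, with the median of all tested assays of the card as a dashed black line. All 7 card A assays move from below 0 to above 0 when controls set the scale. Their place below the card median is the same by construction under all scalings but quantile normalisation, where they are below it too.

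Differences between 2 assays of the same card within a sample do not depend on the scaling, apart from quantile normalisation, which turned the sign of 3 of the pairs described next. The 5 main strands gave 10 such pairs, and in 10 of them the CPN and SCPN samples overlapped. The share of all card A assay pairs that overlap was not computed, so this count cannot be read as a trait of the family. Exact two-sided permutation p-values ran from 0.5 to 1.0, and all were 1.0 after Benjamini-Hochberg adjustment over the 10 pairs, where 3 against 3 cannot go below 0.1. MiR-99a minus miR-125b-5p differed most between classes, with -4.23 ± 0.95 log2 units for CPN and -3.68 ± 0.43 for SCPN (SD, n = 3), a difference of 0.55 with an exact permutation p of 0.6. MiR-99b minus miR-125b-5p differed least, with -4.00 ± 0.23 log2 units for CPN and -3.93 ± 0.44 for SCPN (SD, n = 3). The near-identical miR-99a and miR-100 stayed together in all samples, miR-99a minus miR-100 ranging from -0.65 to 0.09. MiR-99a minus miR-99b, by contrast, spread from -1.45 in CPN replicate 1 and -0.72 in SCPN replicate 1 to 0.84 and 0.98 in the samples numbered 3, with SCPN replicate 2 at 0.48 and CPN replicate 2 at -0.10. This ratio varied more among samples of 1 class than between the classes. Over the 6 samples the SD of the 10 pairs had a median of 0.59, against 1.32 for the 12561 pairs that the 159 commonly detected card A assays allow, which share samples and card with them. These 12561 pairs include dim assays and were not matched for level. Card A family pairs with an opposite strand had an SD of 0.52 to 1.47, so the low median cannot be read as a trait of the family.

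**Figure D4:**
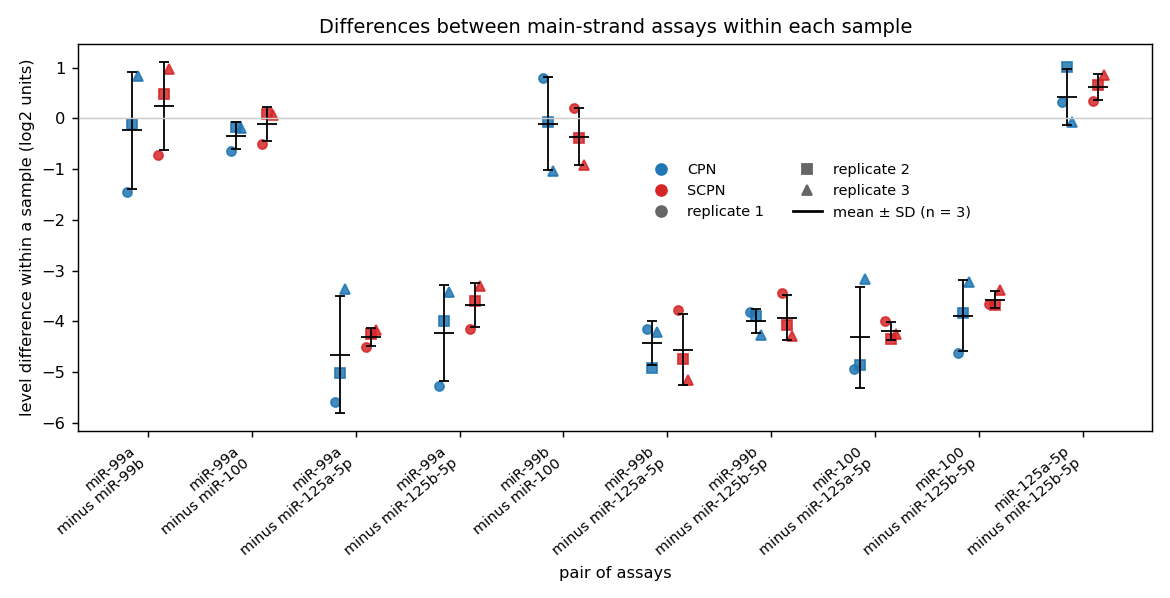
Level of 1 main-strand assay minus that of another in the same sample (log2 units) for all 10 pairs on card A, in CPN (blue) and SCPN (red), marker shape giving the replicate number and black bars the mean ± SD. The classes overlap in every pair, and miR-99a minus miR-100 stays between -0.65 and 0.09.

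The main strands come from 3 gene clusters, each with a let-7 gene between its members. In RefSeq's gene table (GRCm38.p6) Mir99b, Mirlet7e and Mir125a lie within 0.692 kb on chromosome 17. Mir99a, Mirlet7c-1 and Mir125b-2 span 47.4 kb on chromosome 16, and Mir100, Mirlet7a-2 and Mir125b-1 span 50.6 kb on chromosome 9, inside the long noncoding RNA gene Mir100hg. The chromosome 16 cluster does not lie wholly inside the gene Mir99ahg, and a host gene for the chromosome 17 cluster was not looked up. Within the tight cluster on chromosome 17, miR-99b and miR-125a-5p differed by -1.04 and -0.91, while let-7e, which lies between them, differed by -0.004 ± 0.65 (SE, limma adjusted p 0.996). Let-7e stood at 3.86, 2.70 and 4.41 in CPN and 3.39, 4.11 and 3.47 in SCPN, with the SCPN samples inside the CPN range. Let-7e minus miR-99b came to 0.55, -0.094 and 2.85 for CPN replicates 1 to 3 and to 0.74, 2.998 and 2.68 for SCPN replicates 1 to 3. Relative to miR-99b, let-7e was thus high in CPN replicate 3 and SCPN replicates 2 and 3, and the classes overlapped.

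Let-7c, of the chromosome 16 cluster and a second gene elsewhere, stood at 6.81, 4.70 and 4.37 in CPN and 4.98, 4.74 and 3.81 in SCPN. Its difference was -0.78 ± 0.80 (SE, limma adjusted p 0.83), with 2 SCPN samples inside the CPN range. The let-7a assay gave a Ct under 35 in 2 CPN samples (27.743 and 28.823) and in 0 SCPN samples, so it was not tested, and the chromosome 9 cluster has no let-7 value to set beside miR-100. Its minor strand let-7a* was detected in all 6 samples and differed by -0.18 ± 0.80, and let-7c-1* by 0.74 ± 0.96 (SE). Of the relatives by sequence, miR-351 carries the miR-125 seed. Its mouse-named assay was detected in 0 samples and its rat-named assay in 6, with a difference of -1.10 ± 0.96 (SE, limma adjusted p 0.81). MiR-10a was detected in 2 samples and miR-10b in 0. Of the 12 assays on this list of cluster neighbours and relatives, 5 could be tested, and 0 passed in either direction.

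**Figure D5:**
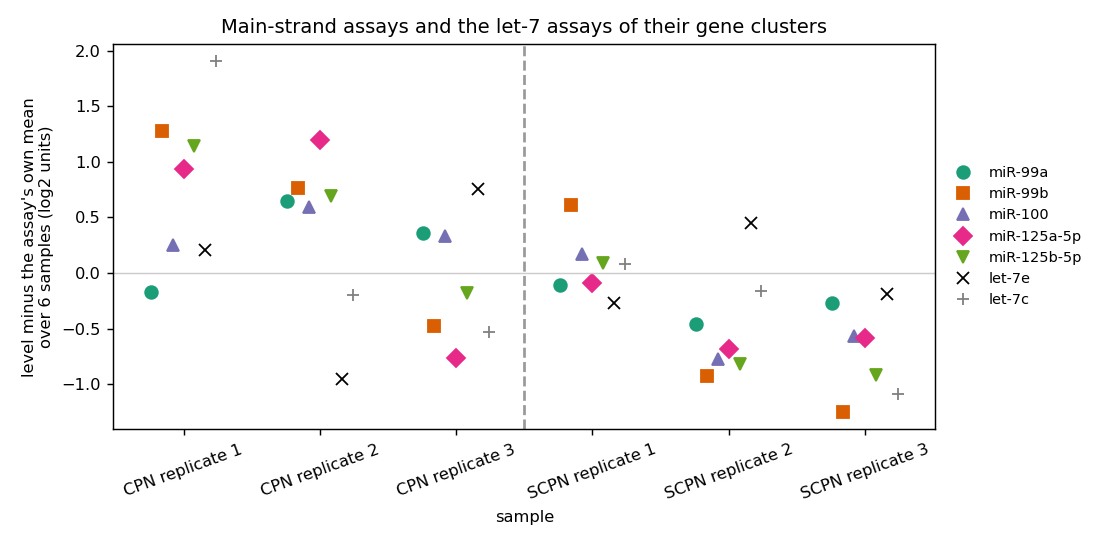
Level of each main-strand assay, of let-7e (crosses) and of let-7c (plus signs) in each sample, minus the assay's own mean over the 6 samples (log2 units). With scaling on the commonly detected assays, the 5 family assays are all below their mean in SCPN replicates 2 and 3 and, apart from miR-99a in CPN replicate 1, above it in CPN replicates 1 and 2, while let-7e is above its mean in CPN replicates 1 and 3 and SCPN replicate 2.

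Averaged over the 5 main strands, the level minus the assay's own mean came to 0.69, 0.78 and -0.15 for CPN replicates 1 to 3 and to 0.13, -0.73 and -0.72 for SCPN replicates 1 to 3. CPN replicates 1 and 2 stood highest, SCPN replicates 2 and 3 lowest, and CPN replicate 3 lay below SCPN replicate 1. The likeness of other assays to this profile was measured as the root mean square difference over the 6 samples, among 213 candidates outside the family. MiR-324-3p came closest at 0.25 log2 units, followed by miR-30d at 0.29 and miR-15b at 0.30, where the median candidate was at 0.97. The family's own assays lay at 0.21 (miR-125b-5p) to 0.47 (miR-99a), but each is part of the profile, which lowers its distance. The 3 named assays, which share samples and card with the family, lay within this range. So did all of the 10 nearest assays, up to 0.37, so the profile was not particular to the family.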

How the data were processed

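Threshold cycles came from TaqMan Low Density Array rodent cards with miRBase 10 content, per the labels and design text; threshold setting and pre-amplification are not known here. The authors deposited raw Ct (768 wells), normalised Ct and a table of ratios (RQ). The deposited normalised Ct equals raw Ct minus a geometric mean over control assays, per sample and card (within 1e-06), and each of the 280 deposited ratios equals 2 to the power of CPN minus SCPN mean normalised Ct.

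Wells of an assay were averaged, and Ct of 35 or more, or none, was set to 35. The mean of assays detected in all 6 samples was subtracted per sample and card and the sign turned. The 306 assays (208 on card A, 98 on card B) with Ct under 35 in at least 3 samples entered limma 3.58.1 (lmFit, eBayes; R 4.3.3), without a block, two-sided, with Benjamini-Hochberg adjustment at 0.05. The code of the fit was run on simulated data with shifts larger than any family difference, independent noise and every assay detected. That run checks the code and does not bear on differences of the family's size. PCR cycles give no read depth, so precision rests on 3 samples per group.

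Samples with the same number deviated from their group means together (correlation 0.71, 0.33 and 0.28 for numbers 1, 2 and 3, over 224 assays). On this basis, taken from these same data, the replicate block was run as an alternative. The labels state no pairing. Deviations within a group of 3 cancel out, so the likeness of the samples numbered 1 by itself raises the correlations among numbers 2 and 3. CPN replicate 2 correlated more with SCPN replicate 3 (0.41), and CPN replicate 3 about as much with SCPN replicate 2 (0.26). These values thus do not show that numbers 2 and 3 are pairs. Named assays are all members, a list of cluster neighbours and relatives, and the 3 assays nearest to the mean main-strand profile. Members, lists and tests were chosen with earlier results of these data known.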

Additional observations from a re-analysis of the deposited data

How the results depend on the processing

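No family assay passed adjusted p 0.05 under any of 21 alternatives, and the limma adjusted p ranged from 0.283 (miR-125b-5p, replicate block) to 0.997. The unadjusted p of miR-125b-5p was under 0.05 with the replicate block (0.0417) and with median scaling (0.0467, adjusted 0.549). The replicate block changed no other call. Over all tested assays 0 passed, except 1 with sample weights (miR-666-5p). The count at unadjusted p under 0.05, 25, was 42 with sample weights or controls without U6, 51 with the replicate block, 48 with the sample's mean Ct as covariate, and 14 with no filter or without SCPN replicate 3.

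With the deposited control scaling 1 family assay was lower in SCPN, with a median of 0.33, and the values were 0.46 for miR-100, 0.28 for miR-125a-3p, 0.33 for miR-125a-5p, 0.55 for miR-125b-3p, 0.14 for miR-125b-5p, 0.68 for miR-99a, 0.20 for miR-99b and 0.16 for the rat-named miR-99a*. With controls without U6 again 1 was lower, with a median of 0.55 and 9.48% of all tested assays lower, and the values were 0.55, 0.38, 0.43, 0.64, 0.23, 0.78, 0.29 and 0.63 in the same order. Sample weights gave 0.094 for miR-125b-3p. Quantile normalisation turned miR-99b minus miR-125b-5p to -0.40, miR-100 minus miR-125a-5p to -0.25 and miR-100 minus miR-125b-5p to -0.24.

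Leaving out 1 sample kept 8 or 9 family assays lower, with medians from -1.14 to -0.60 and card A medians, minus that of all tested card A assays, from -1.44 to -0.32. MiR-125b-3p was above the card A median without CPN replicate 2 and with sample weights, and all 7 card A assays were below it otherwise, which scalings other than quantile could not alter. The rat-named miR-99a* ran from -0.95 to 0.39 in these cases. The pairs ran from -0.12 to 1.02 (miR-99a minus miR-99b), -0.12 to 1.00 (miR-99a minus miR-125a-5p), -0.73 to 0.19 (miR-99b minus miR-100), -0.52 to 0.16 (miR-99b minus miR-125a-5p), -0.19 to 0.24 (miR-99b minus miR-125b-5p), -0.19 to 0.70 (miR-100 minus miR-125a-5p), -0.044 to 0.66 (miR-100 minus miR-125b-5p) and -0.046 to 0.50 (miR-125a-5p minus miR-125b-5p). Without both samples numbered 1, chosen after seeing the data, miR-99a minus miR-125a-5p was -0.022, miR-99b minus miR-125b-5p -0.099, miR-100 minus miR-125a-5p -0.29 and miR-100 minus miR-125b-5p -0.005. The deposited control scaling shifted every difference by 1.24 on card A and by 0.38 on card B. On card A the controls came 9.11 and 10.50 cycles before the mean of common assays in CPN replicates 1 and 2. In the other samples they came 7.79 to 7.99 cycles before it. Why the controls stood differently in these samples was not tested.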
